A study of Homo sapiens with 6 samples.

Results

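Of 45 zinc finger protein genes measured in HepG2 cells, 23 were lower (51.1%, against 36.5% of all loci) and 2 higher (4.44%, against 21.2% of all loci) in cells without FN3K, the kinase that removes sugars bound to lysines. In a regression with a library covariate from Ballgown, 4.44% of these genes and 8.20% of all loci were lower. The median log2 fold change in that fit was -0.33 for these genes and -0.05 for all loci. Without the covariate, 20.0% of the 10 zinc finger protein genes that overlap no other annotated gene were lower, against 33.9% of such loci. The zinc finger protein genes were those whose listed name is ZNF, ZSCAN, ZKSCAN or ZFP followed by a number and at most 1 letter, and 45 of 6357 loci met this rule. Of these, 42 were ZNF genes, 3 were ZFP genes and 0 were ZSCAN or ZKSCAN genes. Of all loci, 4926 carried a gene name and 1431 did not. RNA was sequenced from HepG2, a human liver cancer line obtained from ATCC, as 3 plates of WT cells and as 3 plates in which FN3K had been knocked out with CRISPR (FN3K KO). All 6 plates grew in the same medium with fetal bovine serum, and the number of KO clones behind the 3 KO plates is not given in the sources used here. Levels are FPKM, fragments divided by transcript length and by the mapped fragments of a library. They hold no read counts, so the depth behind each value is unknown.

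The labels held for the targeted gene: FN3K stood at 27.7, 21.9 and 23.2 FPKM in the WT plates and at 0.782, 1.03 and 0.704 FPKM in the KO plates. All KO libraries lay far below all WT libraries (log2 fold change -3.78, SE 0.13, limma with Benjamini-Hochberg adjusted p = 1.11e-07). FPKM summed to between 289983 and 314164 in the 6 libraries, and 9 of 10 hepatocyte markers were listed by name, all but ALB. Their summed level was 7881 to 8001 FPKM in WT and 14530 to 15750 FPKM in KO, and the part of this difference in the lower FPKM of other genes was not tested. No marker of blood, endothelium, fibroblast or neuron was listed (0 of 3, 3, 3 and 2).

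Most proteins named ZNF carry C2H2 zinc fingers, short loops held by a zinc ion between a pair of cysteines and a pair of histidines, and arrays of such fingers read DNA. Many also carry a KRAB box, which binds the corepressor TRIM28 and through it brings histone methylation and deacetylation to a site, or a SCAN domain, which pairs such proteins. Others have left this role: ZFP36 has CCCH fingers that bind AU-rich mRNA, and several single-finger proteins work on ribosomes or the spindle.

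The promoters of the members are shown by 4 examples, ZFP36, which rose, and ZNF787, ZNF282 and ZNF384, which fell. The examples were chosen after their values were seen. Each sequence lies before the annotated start of the gene, in no annotated exon, and comes from RefSeq on GRCh38.p14. The windows are chr19:39406597-39406812 on the plus strand for ZFP36, chr19:56121296-56121545 on the minus strand for ZNF787, chr7:149195296-149195484 on the plus strand for ZNF282, and chr12:6689573-6689822 on the minus strand for ZNF384, read 5′ to 3′ along the gene. Capitals mark GC boxes (GGGCGG), ETS cores (CGGAAG) and CCAAT boxes (CCAAT) on either strand, which can overlap each other.
ZFP36: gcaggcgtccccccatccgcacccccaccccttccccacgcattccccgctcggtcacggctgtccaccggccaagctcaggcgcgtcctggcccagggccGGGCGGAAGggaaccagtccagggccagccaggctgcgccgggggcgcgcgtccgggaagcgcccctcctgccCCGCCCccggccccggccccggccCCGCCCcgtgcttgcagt
ZNF787: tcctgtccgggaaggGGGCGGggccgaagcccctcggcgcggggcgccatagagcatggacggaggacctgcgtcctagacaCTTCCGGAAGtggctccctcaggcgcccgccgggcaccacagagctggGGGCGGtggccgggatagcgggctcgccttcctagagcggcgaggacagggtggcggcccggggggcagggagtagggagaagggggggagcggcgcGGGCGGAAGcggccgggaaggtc
ZNF282: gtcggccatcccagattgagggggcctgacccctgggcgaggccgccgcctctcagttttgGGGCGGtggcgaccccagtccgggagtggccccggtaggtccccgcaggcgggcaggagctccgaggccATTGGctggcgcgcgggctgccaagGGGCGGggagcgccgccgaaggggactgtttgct
ZNF384: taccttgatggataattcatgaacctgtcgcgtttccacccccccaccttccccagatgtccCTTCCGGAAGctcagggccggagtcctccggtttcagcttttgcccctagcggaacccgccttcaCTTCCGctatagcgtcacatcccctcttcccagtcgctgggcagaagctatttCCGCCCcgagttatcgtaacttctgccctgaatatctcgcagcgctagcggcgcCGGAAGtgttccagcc
These windows held 4 marked motifs in ZFP36, 6 in ZNF787, 3 in ZNF282 and 5 in ZNF384. Over the 250 bases before the RefSeq start, found for 42 of 45 members, the GC box was present in 69% of members and 42.5% of all 34943 promoters. The ETS core was present in 45.2% of members and 16.4% of all promoters. The CCAAT box was present in 45.2% and 32%, and the cAMP response element (TGACGTCA) in 4.76% and 1.63%. The TATA box (TATAAA) was present in 0 of 42 members and 10.8% of all promoters, and the E-box (CACGTG) in 2.38% and 6.32%. Median GC content was 64.8% in the members and 58.0% in all promoters. The set of all promoters was not limited to listed loci, and a match describes letters, not binding. Called and uncalled members were not compared, and a part of these motifs in the changes was not tested.

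With limma on log2(FPKM + 1), 23 of the 45 members were lower in FN3K KO at an adjusted p under 0.05 (51.1%, against 36.5% of all loci). Only 2 were higher, ZNF511 and ZFP36 (4.44%, against 21.2% of all loci). The other 20 members did not pass the test. The median log2 fold change was -0.37 for the members, with quartiles of -0.55 and -0.14, and -0.14 for all loci, with quartiles of -0.42 and 0.21. Of the members, 35 lay below the median of all loci. The mean log2 value was lower in KO for 40 members (88.9%, against 62.0% of all loci).

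All 3 KO values lay below all 3 WT values for 25 members (55.6%, against 39.8% of all loci) and above them for 2 members (4.44%, against 23.6% of all loci). Changes were mostly small: with a fold limit of 1 on the log2 scale and a p under 0.05 before adjustment, 1 member was higher (2.22%, against 4.31% of all loci) and 2 were lower (4.44%, against 3.32% of all loci). When the median change of all loci was set to 0, 16 members were still called lower (35.6%, against 23.0% of all loci) and 2 higher (4.44%, against 28.6% of all loci). A per-locus regression on the group and on Ballgown's library covariate called far fewer: 2 members were lower, ZNF48 and ZNF513 (4.44%, against 8.20% of all loci), and 1 was higher, ZNF511 (2.22%, against 9.53% of all loci). That regression took the variance of each locus alone, where limma also draws on the other loci. Its median log2 fold change was -0.33 for the members and -0.05 for all loci.

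Summed over the 45 genes, the level was 494.6, 504.8 and 511.1 FPKM in the WT libraries. It was 395.8, 412.1 and 406.6 FPKM in the KO libraries. The groups did not overlap (503.5 ± 8.31 and 404.8 ± 8.31 FPKM, SD, n = 3; p = 0.1 by a two-sided exact permutation test, the lowest that 3 libraries against 3 allow). The members took 0.1645% to 0.1754% of all FPKM in WT and 0.1294% to 0.1399% in KO. Fewer transcripts per cell and a larger share taken by other transcripts cannot be told apart in such values.

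**Figure D1:**
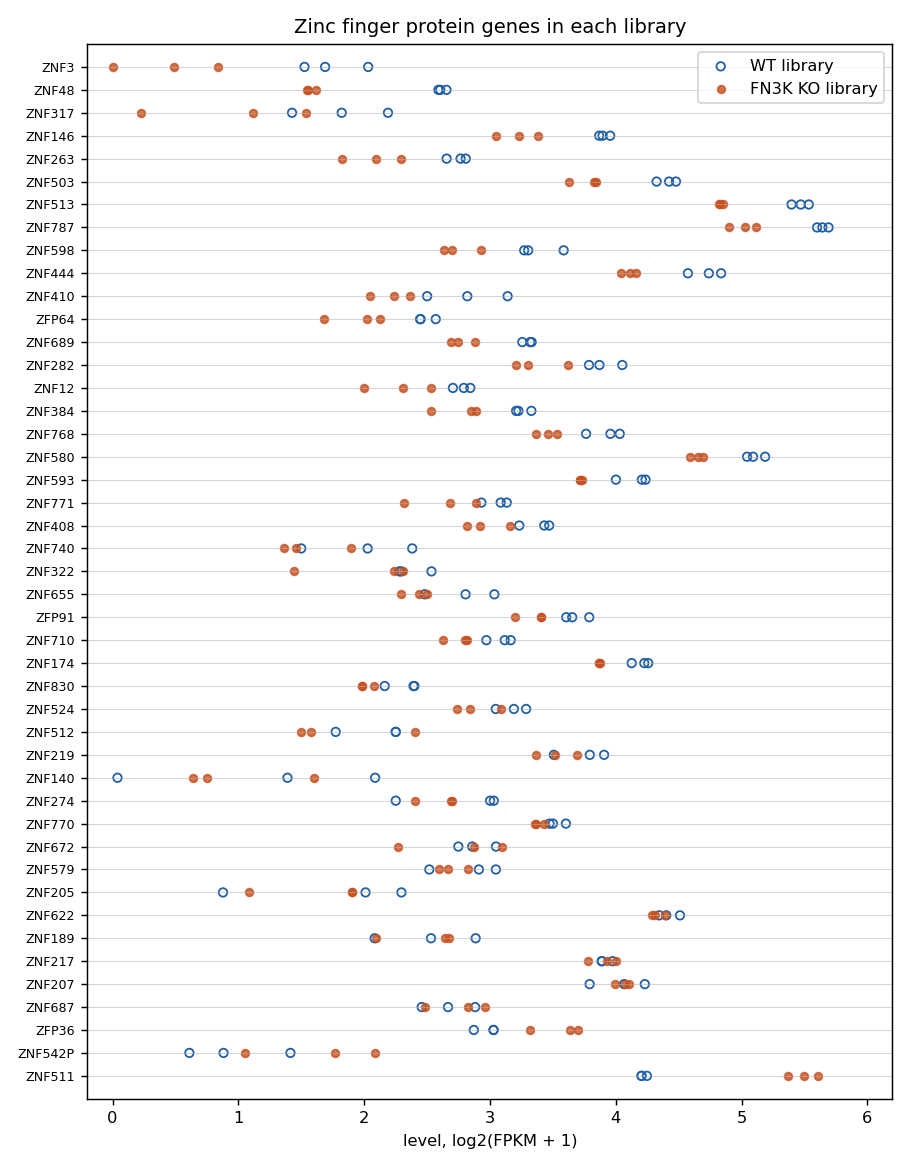
Level of each of the 45 zinc finger protein genes as log2(FPKM + 1) on the horizontal axis, with open blue circles for the 3 WT libraries and filled orange circles for the 3 FN3K KO libraries, ordered by fold change. In 25 genes all KO points lie left of all WT points, and in ZFP36 and ZNF511 all lie to the right.

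**Figure D2:**
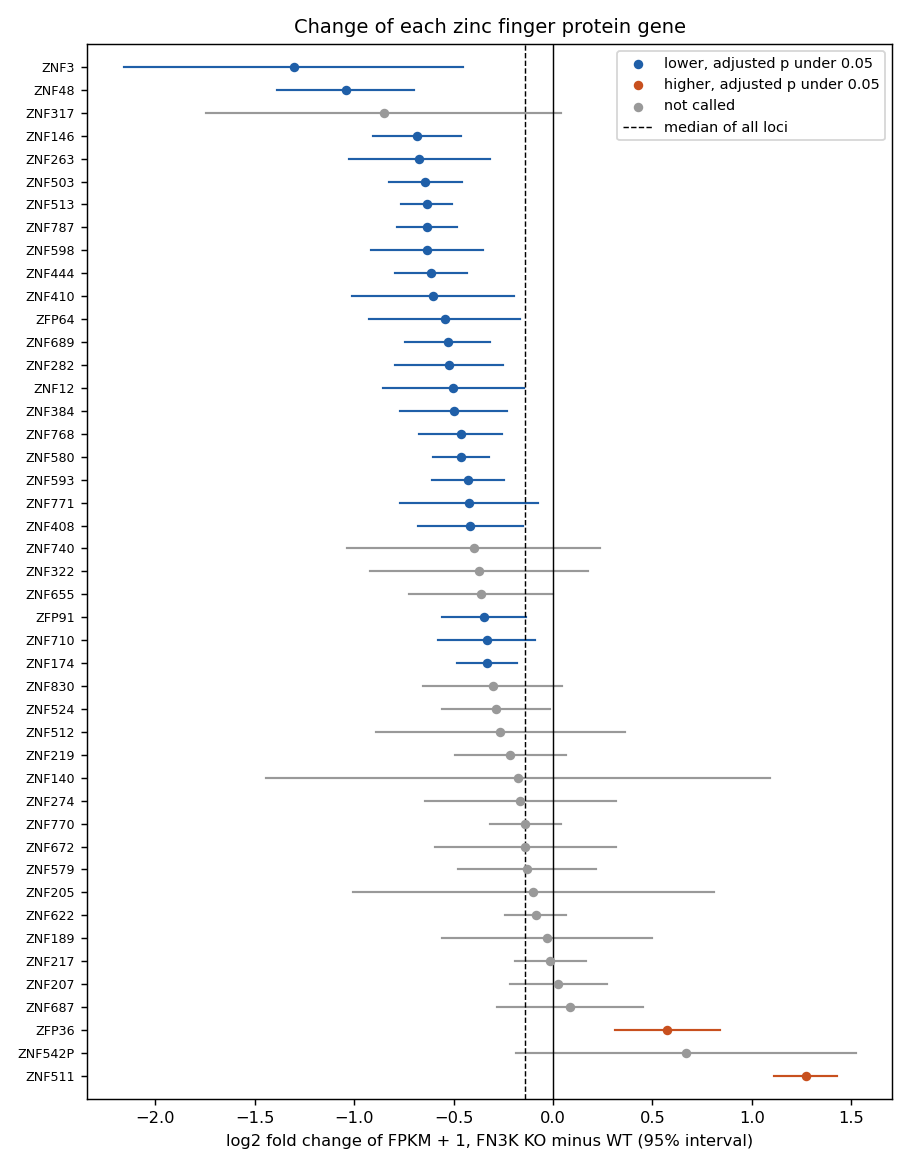
Log2 fold change of FPKM + 1, FN3K KO minus WT, of each gene, with its 95% interval from limma. Blue marks the 23 genes called lower, orange the 2 called higher and grey the 20 not called, and the dashed line is the median of all loci, -0.14.

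The genes were of low to middle level. Their mean over the 6 libraries had a median of 7.17 FPKM, from 1.36 FPKM for ZNF140 to 40.2 FPKM for ZNF787, where the median of all loci was 13.2 FPKM. Set beside loci of like level, the members still lay lower. Of 16 members at 10 FPKM or over, 11 were called lower (68.8%, against 40.1% of 3815 loci), with a median log2 fold change of -0.44 against -0.11. Of 14 members from 5 to 10 FPKM, 6 were called lower (42.9%, against 37.0% of 1367 loci), with a median of -0.31 against -0.18. Of 11 members from 2 to 5 FPKM, 5 were called lower (45.5%, against 27.7% of 842 loci), with a median of -0.40 against -0.20. Under 2 FPKM there were only 4 members, and 1 was called lower, where 16.2% of 333 loci were. The median there was -0.51 for these 4 members against -0.35 for the loci.

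**Figure D3:**
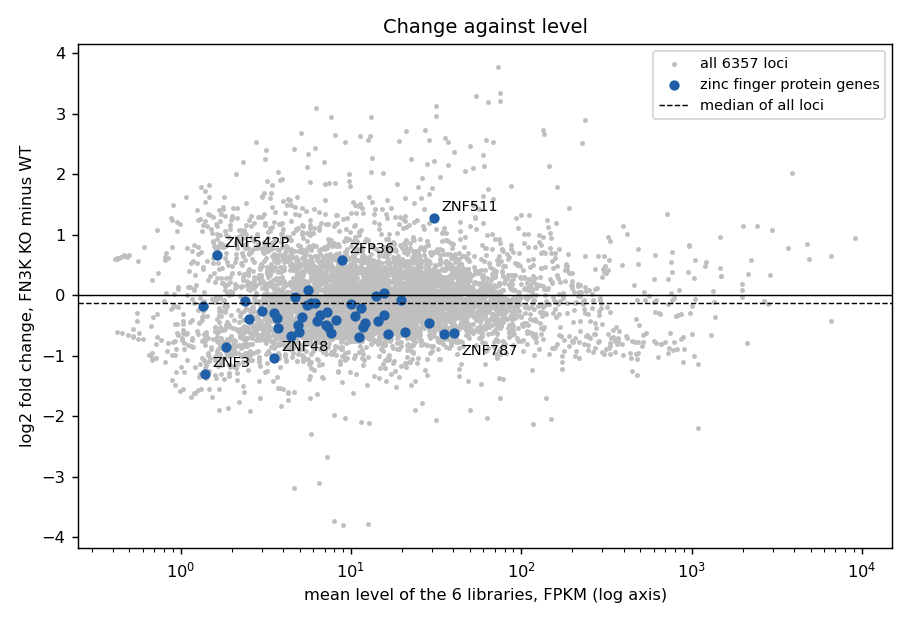
Log2 fold change, FN3K KO minus WT, against the mean level of the 6 libraries in FPKM on a log axis, for all 6357 loci in grey and the 45 zinc finger protein genes in blue. The blue points lie mostly below the dashed median of all loci, 35 of 45, and ZNF511 and ZFP36 stand above the rest of the called members.

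The strand of the libraries is not given in the sources used here, and reads shared between overlapping genes could not be measured from FPKM. By GENCODE version 29, 35 members overlap another annotated gene, and 21 of these were called lower (60.0%, against 38.1% of 3296 placed loci with an overlap). Their median log2 fold change was -0.42, against -0.15 for all such loci. Of the 10 members without an overlap, 2 were called lower, ZNF282 and ZNF408 (20.0%, against 33.9% of 1597 such loci). Only ZFP36 was called higher (10.0%, against 27.5% of such loci). The median of these 10 was -0.15, against -0.09 for all such loci. The part of overlap in the lower calls was not tested. Among the proteins of the listed members, the closest pair, ZNF12 and ZNF146, was identical at 58.9% of the shorter protein. Likeness between transcripts, and to zinc finger genes that are not listed, was not measured, so reads shared with those are unknown.

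ZNF511 (chromosome 10 from 133308475 to 133313162, plus strand, GRCh38) rose most. It had 17.45, 17.44 and 18 FPKM in the WT libraries and 44.1, 40.4 and 47.8 FPKM in the KO libraries. The lowest KO library lay far above the highest WT library, and the mean was 2.50-fold higher (log2 fold change 1.27, SE 0.07, limma adjusted p = 1.74e-06). With each library left out in turn the log2 fold change stayed between 1.21 and 1.33. The gene overlaps the readthrough gene ZNF511-PRAP1 on the same strand and TUBGCP2, a subunit of the gamma-tubulin complex, on the other, whose start lies 3862 bases away. TUBGCP2 had 12.9 ± 0.549 FPKM in WT and 11.3 ± 0.758 FPKM in KO (SD, n = 3) and did not pass the test (limma adjusted p = 0.0662). Neither PRAP1 nor the readthrough gene was listed by name.

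ZFP36 (chromosome 19 from 39406813 to 39409412, plus strand), or tristetraprolin, binds AU-rich elements of cytokine and other short-lived mRNAs and hastens their decay. It had 6.32, 7.16 and 7.16 FPKM in WT and 8.97, 11.45 and 11.99 FPKM in KO. The groups did not overlap (log2 fold change 0.57, SE 0.12, limma adjusted p = 0.003), and no other annotated gene overlaps it. Its paralogs, which have the same kind of finger but are not matched by the naming rule, went both ways. ZFP36L1 rose, with 8.16, 9.70 and 9.93 FPKM in WT and 13.5, 14.5 and 12.9 FPKM in KO (log2 fold change 0.51, SE 0.09, limma adjusted p = 0.00156). ZFP36L2 fell, with 56.1, 52.1 and 53.3 FPKM in WT and 38.4, 45.8 and 37.1 FPKM in KO (log2 fold change -0.41, SE 0.08, limma adjusted p = 0.00261).

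Among the lower genes, ZNF48 and ZNF3 passed the fold limit. ZNF48 (chromosome 16 from 30378106 to 30400108, plus strand), a protein of 12 fingers, had 5.30, 5.08 and 5.02 FPKM in WT and 1.92, 2.07 and 1.94 FPKM in KO. Its KO level was 38.5% of the WT mean, and the spread within each group was small (log2 fold change -1.04, SE 0.15, limma adjusted p = 0.000486). ZNF48 overlaps SEPT1 on the opposite strand. ZNF3 (chromosome 7 from 100064033 to 100082548, minus strand), which matches the KRAB box, had 3.09, 2.23 and 1.88 FPKM in WT, was listed at 0 in KO replicate 1 and had 0.405 and 0.792 FPKM in KO replicates 2 and 3. All KO values lay below all WT values, at levels where the pseudocount shapes the fold (log2 fold change -1.31, SE 0.38, limma adjusted p = 0.016). The transcript listed for it is annotated as a retained intron, and without WT replicate 1 the adjusted p was 0.0616. Since the filter on loci is not given, whether ZNF3 or ZNF48 was listed through its WT values alone is unknown.

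Of the 5 members of highest level, ZNF511 rose, as given above, and the other 4 fell. ZNF787 (chromosome 19 from 56087366 to 56121280, minus strand) had 47.5, 49.0 and 50.7 FPKM in WT and 28.8, 31.6 and 33.6 FPKM in KO (log2 fold change -0.63, SE 0.07, limma adjusted p = 7.07e-05). ZNF513 (chromosome 2 from 27377231 to 27380790, minus strand), a gene mutated in a form of retinitis pigmentosa, had 41.2, 43.4 and 45.4 FPKM in WT and 27.8, 27.3 and 27.4 FPKM in KO (log2 fold change -0.64, SE 0.06, limma adjusted p = 2.72e-05). Both stood at about the same share of their WT means, 63.9% and 63.5%, with no overlap between groups. ZNF580 (chromosome 19 from 55635016 to 55643469, plus strand) had 33.1, 32.0 and 35.5 FPKM in WT and 23.1, 24.9 and 24.1 FPKM in KO (log2 fold change -0.46, SE 0.06, limma adjusted p = 0.000313). Its annotation shares bases with ZNF581 and CCDC106 on the same strand, neither of which was listed by name. ZNF444, known as a SCAN domain protein, had 25.7, 22.8 and 27.6 FPKM in WT and 16.3, 16.9 and 15.4 FPKM in KO (log2 fold change -0.61, SE 0.08, limma adjusted p = 0.000253). In each of these 4 genes the lowest WT library lay above the highest KO library.

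Lower levels were also found for ZNF146, a protein made almost wholly of its 10 fingers, which had 13.6, 14.5 and 13.9 FPKM in WT and 9.44, 8.41 and 7.26 FPKM in KO (log2 fold change -0.69, SE 0.10, limma adjusted p = 0.000417). ZNF410, an activator of the chromatin remodeller gene CHD4, had 6.06, 7.82 and 4.66 FPKM in WT and 3.13, 3.71 and 4.16 FPKM in KO. Its groups came close to each other, and its call (log2 fold change -0.60, SE 0.18, limma adjusted p = 0.0185) was lost without KO replicate 1 (adjusted p = 0.0654) and without WT replicate 2 (adjusted p = 0.0741). Both ZFP genes with C2H2 fingers fell. ZFP64, a transcription factor known as a driver of MLL expression in leukaemia, had 4.46, 4.93 and 4.45 FPKM in WT and 3.06, 3.36 and 2.21 FPKM in KO (log2 fold change -0.55, SE 0.17, limma adjusted p = 0.0211). ZFP91, a nuclear ubiquitin ligase, had 11.2, 12.8 and 11.6 FPKM in WT and 9.62, 9.60 and 8.18 FPKM in KO (log2 fold change -0.35, SE 0.09, limma adjusted p = 0.0115). The call of ZFP64 was lost without KO replicate 3 (adjusted p = 0.0553) and without WT replicate 2 (adjusted p = 0.0697), and that of ZFP91 without WT replicate 2 (adjusted p = 0.0527).

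Of 12 genes with roles on RNA, the ribosome or the spindle, 6 were listed. Of these, 1 rose (16.7%, against 21.2% of all loci), 2 fell (33.3%, against 36.5% of all loci) and 3 did not pass, with a median log2 fold change of -0.20. ZNF598, the ubiquitin ligase that marks collided ribosomes, fell from 8.66, 11.0 and 8.88 FPKM in WT to 6.63, 5.50 and 5.20 FPKM in KO (log2 fold change -0.63, SE 0.12, limma adjusted p = 0.00248). ZNF593, a factor of the pre-60S ribosomal subunit, fell from 15.0, 17.9 and 17.5 FPKM to 12.2, 12.2 and 12.3 FPKM (log2 fold change -0.43, SE 0.08, limma adjusted p = 0.00191). The KO libraries of ZNF593 were nearly equal. ZNF622, a cytoplasmic factor of the same subunit, had 20.1, 21.8 and 19.3 FPKM in WT and 20.0, 18.5 and 18.9 FPKM in KO, with overlapping groups (log2 fold change -0.09, SE 0.07). ZNF207, the spindle protein BuGZ, had 15.5 ± 2.47 FPKM in WT and 15.7 ± 0.622 FPKM in KO (SD, n = 3), and its log2 fold change of 0.03 had an interval from -0.22 to 0.27. ZNF830, found with the spliceosome, had 3.48, 4.25 and 4.28 FPKM in WT and 3.22, 2.95 and 2.96 FPKM in KO, and its groups did not overlap though it missed the threshold (limma adjusted p = 0.121).

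Of 18 regulators with described targets, 4 were listed, and 2 of these fell (50.0%, against 36.5% of all loci). ZNF263, a transcription factor known to carry both SCAN and KRAB domains, had 5.30, 5.80 and 6.00 FPKM in WT and 3.90, 3.27 and 2.54 FPKM in KO (log2 fold change -0.67, SE 0.16, limma adjusted p = 0.00581). ZNF503, a developmental repressor, had 19.04, 20.5 and 21.3 FPKM in WT and 11.4, 13.4 and 13.2 FPKM in KO (log2 fold change -0.64, SE 0.08, limma adjusted p = 0.000216). Its antisense neighbour ZNF503-AS2 also fell, from 4.79, 3.89 and 3.82 FPKM to 1.96, 2.69 and 3.01 FPKM (log2 fold change -0.55, SE 0.18, limma adjusted p = 0.0305), and reads of the pair cannot be told apart without strand. ZNF217, a corepressor amplified in breast cancers, had 14.1 ± 0.526 FPKM in WT and 14.0 ± 1.17 FPKM in KO (SD, n = 3), and the log2 fold change of -0.01 had an interval from -0.19 to 0.17. ZNF219 had 12.4 ± 1.86 FPKM in WT and 10.5 ± 1.33 FPKM in KO (SD, n = 3) and did not pass (limma adjusted p = 0.166). Of 5 known repressors of retroelements, 0 were listed by name.

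By domain, read with patterns from the annotated coding sequence, 9 members matched a KRAB box, and 4 of these were called lower (44.4%, against 36.5% of all loci) and 0 higher (against 21.2% of all loci). Their median log2 fold change was -0.50. The 4 were ZNF3, ZNF12, ZNF263 and ZNF689. Of 32 members with C2H2 fingers and neither a KRAB nor a SCAN match, 17 were called lower (53.1%, against 36.5% of all loci). In this class 1 was called higher (3.12%, against 21.2% of all loci), and the median was -0.39. A missing match is not a missing domain, and ZNF444 is counted in this class. Of 2 members that matched a SCAN domain, ZNF174 was called lower and ZNF274 was not, while the known SCAN proteins ZNF263 and ZNF444 did not match the strict pattern. Of 30 members with 5 or more fingers, 17 were called lower (56.7%) and 0 higher, and of 12 members with 1 to 4 fingers, 5 were lower (41.7%) and 1 higher (8.33%), where 36.5% of all loci were lower and 21.2% higher. The medians of these finger classes were -0.42 and -0.32. Differences between the classes were not tested.

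The corepressor genes that KRAB proteins rely on were taken as a list of 23, of which 12 were listed by name. Of these, 6 fell (50.0%, against 36.5% of all loci), 1 rose (8.33%, against 21.2% of all loci) and 5 did not pass, with a median log2 fold change of -0.16, near the -0.14 of all loci. The 7 calls became 4 without KO replicate 1 and also 4 without WT replicate 3. TRIM28, the protein that KRAB boxes bind, fell from 120.4, 123.4 and 125.6 FPKM in WT to 87.9, 92.1 and 88.9 FPKM in KO (log2 fold change -0.45, SE 0.05, limma adjusted p = 8.57e-05). MTA1, a subunit of the NuRD deacetylase complex, fell from 39.9, 38.5 and 43.3 FPKM to 27.0, 26.2 and 27.5 FPKM (log2 fold change -0.57, SE 0.06, limma adjusted p = 7.75e-05). The histone chaperones RBBP4 and RBBP7 and the HP1 gene CBX3 fell by less, with log2 fold changes of -0.30, -0.18 and -0.20. UHRF1, which brings DNA methyltransferase to replicated DNA, rose from 2.77, 1.52 and 2.45 FPKM to 5.06, 7.74 and 6.97 FPKM (log2 fold change 1.23, SE 0.21, limma adjusted p = 0.00109). DNMT1, HDAC1, HDAC2, CBX1 and MORC2 did not pass, with log2 fold changes between -0.15 and 0.14. SETDB1 was not listed by name.

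Chromosome 16 held 8 of the members, and 7 of these were called lower (87.5%, against 42.9% of 273 loci on that chromosome), with a median log2 fold change of -0.50 against -0.18. All but ZNF205 fell. Setting chromosome 16 apart was not planned, since the plan compared chromosome 19 with the others. Chromosome 19, home of the large zinc finger gene clusters of the human genome, held 10 members, of which 4 were called lower (40.0%, against 44.5% of 310 loci there) and 1 higher (10.0%, against 15.5% of loci there). On the other chromosomes, 12 of 27 members were called lower (44.4%, against 36.75% of all loci with a known place, a set that includes chromosomes 16 and 19).

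On chromosome 16, ZNF48, ZNF771, ZNF768 and ZNF689 lie within 246 kb (30378106 to 30624012), and all 4 fell, with log2 fold changes from -1.04 to -0.42. The 14 other listed loci within 500 kb had a median of 0.08, from -0.37 to 0.53, with 4 called lower and 6 higher. All 4 members therefore lay below each of these neighbours. The neighbours nearest to the start of ZNF48 also fell: CD2BP2 at -27.3 kb (-0.28), TBC1D10B at -21.0 kb (-0.36) and DCTPP1 at 45.5 kb (-0.30). The nearest neighbour called higher, SLX1A-SULT1A3, started at -184.2 kb (0.53). The fall was thus not limited to the zinc finger protein genes of this stretch. ZNF768 had 15.4, 12.6 and 14.5 FPKM in WT and 9.99, 9.32 and 10.6 FPKM in KO (log2 fold change -0.46, SE 0.09, limma adjusted p = 0.00256). ZNF689 had 9.07, 8.99 and 8.56 FPKM in WT and 5.72, 6.35 and 5.47 FPKM in KO (log2 fold change -0.53, SE 0.10, limma adjusted p = 0.00153). ZNF771 had 7.49, 6.63 and 7.78 FPKM in WT and 3.99, 5.41 and 6.42 FPKM in KO (log2 fold change -0.42, SE 0.15, limma adjusted p = 0.0413). ZNF771 was the least firm of the 4, with a KO library just under the lowest WT library, and its call was lost without KO replicate 1 or 2 or without any single WT replicate (adjusted p of at most 0.129). These 4 genes overlap other annotated genes, ZNF771 with the listed gene DCTPP1, and the neighbours are not independent of each other.

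Elsewhere the neighbours moved less as a unit. On chromosome 16 from 3112560 to 3409370, ZNF263 and ZNF174 fell and ZNF205 did not pass, while 10 listed neighbours had a median log2 fold change of -0.08. On chromosome 19 from 55576770 to 56379828, 3 of 6 members fell (ZNF580, ZNF787 and ZNF444), ZNF579 and ZNF524 did not pass, and the pseudogene ZNF542P had 1.67, 0.843 and 0.527 FPKM in WT and 3.26, 1.08 and 2.41 FPKM in KO with overlapping groups. The 5 listed neighbours there had a median of -0.28, with 2 called lower and 0 higher. On chromosome 2, ZNF513 fell and ZNF512 did not pass, among 12 neighbours with a median of 0.01.

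**Figure D4:**
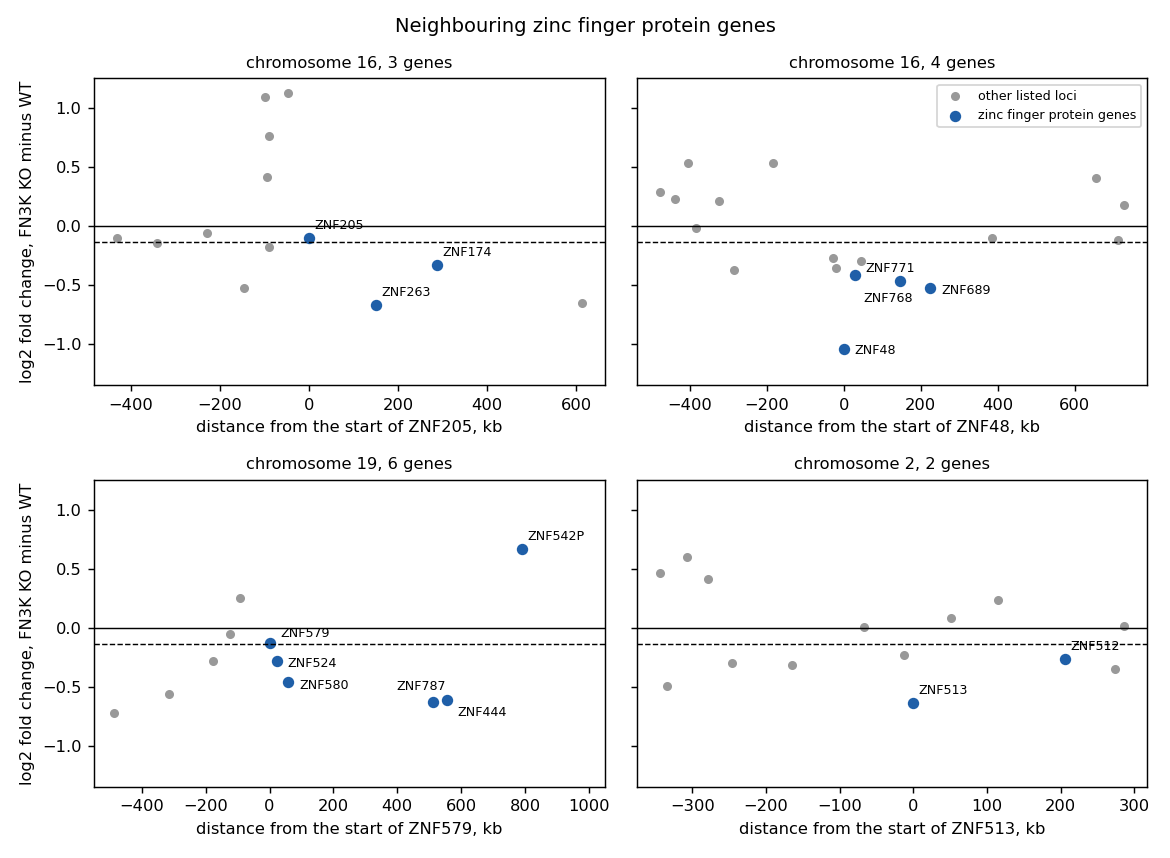
Log2 fold change, FN3K KO minus WT, of zinc finger protein genes (blue) and other listed loci within 500 kb (grey) in 4 places of the genome, against distance in kb from the start of the first member. The dashed line is the median of all loci, and the 4 blue points of the second panel, from -1.04 to -0.42, lie below all 14 grey points there.

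The remaining members called lower, ZNF12, ZNF174, ZNF282, ZNF384, ZNF408 and ZNF710, had log2 fold changes from -0.52 to -0.33, and their KO values did not overlap the WT values. Calls were lost for ZNF12 without KO replicate 1 or 3 or WT replicate 2 or 3 (adjusted p of at most 0.0737), for ZNF408 without KO replicate 3 or WT replicate 3 (at most 0.0559), and for ZNF710 without KO replicate 3 or WT replicate 1 or 2 (at most 0.0909). Of the 20 members that were not called, 18 had groups that overlapped. ZNF317 had the lowest log2 fold change among these 20, with 1.69, 3.56 and 2.53 FPKM in WT and 0.170, 1.91 and 1.17 FPKM in KO (limma adjusted p = 0.0928). ZNF140 ranged from 0.0275 to 3.25 FPKM within WT alone. Its log2 fold change of -0.18 had an interval from -1.44 to 1.09, so changes of either direction lie within it.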

How the data were processed

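Processed values of 3 WT and 3 FN3K KO libraries of HepG2 cells were analysed. The labels name total RNA and enrichment with oligo(dT). The authors mapped reads with HISAT2, quantified transcripts with StringTie 2.0.6 and deposited FPKM per locus made with Ballgown; the submitters' processing notes name the build GRCh38.p5. The filter on loci and the strand are not given in the sources used here. Depth is unknown, since low FPKM did not step by whole reads (at most 3 of 300 low loci shared a ratio between libraries).

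From the deposited FPKM, log2(FPKM + 1) was fitted over all 6357 loci with limma 3.58.1 in R 4.3.3 (lmFit, eBayes with a variance trend) without covariates, with Benjamini-Hochberg adjustment over all loci. A locus was called at an adjusted p under 0.05. On this scale the pseudocount shrinks the fold changes of low genes. Nothing says that the plates were separate cultures beyond the triplicate, so p-values measure the spread between plates, which may be technical. On simulated data of 6357 loci, limma recovered 53.8% of 106 loci changed by 0.5 on the log2 scale. It recovered 84.0% of 94 loci changed by 1, with 5 false calls among the unchanged loci. Far fewer loci were changed there than were called in the data (2322 lower and 1348 higher), so these rates may differ.

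Coordinates and overlaps came from GENCODE version 29 (GRCh38) through the listed transcript, and through the gene name for ZNF598. Domains were matched on translated GENCODE coding sequences, since no RefSeq proteins were used here: C2H2 as C, 2 to 4 residues, C, 12 residues, H, 3 to 5 residues, H, and KRAB as DV, 7 residues, EW. Promoters were RefSeq sequences on GRCh38.p14. Named genes were members past the fold limit, the 10 highest and 10 lowest called changes, the 5 highest levels, ZFP genes, role groups, TRIM28 and close neighbours; others are named after their values were seen. A member of the corepressor list is counted but not reported here. The members and lists were chosen with earlier results of these data known. The alternatives tried were limma without the trend, a replicate block, each library left out, centring on the median, a shared 75th percentile, loci with a mean of at least 1 FPKM, a pseudocount of 0.1, and a regression per locus with Ballgown's library covariate. Setting the median change to 0 and leaving out overlapping genes were chosen after seeing the data. Python 3.11.15, pandas 2.3.3, numpy 2.4.6, scipy 1.17.1, biopython 1.88 and matplotlib 3.10.9 were used.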

Additional observations from a re-analysis of the deposited data

How the results depend on the processing

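The median log2 fold change of the members stayed negative under each alternative and when each library was left out. It was -0.45 with a pseudocount of 0.1, -0.30 with each library centred on its median and -0.24 with the median change of all loci set to 0. The last was chosen after seeing the data. At least 32 of 45 members lay below the median of all loci in each of these fits. The regression per locus with Ballgown's library covariate moved the calls most: 2 members were lower and 1 was higher, 1 passed the fold limit downward, and 3 corepressor genes were called, while its calls over all loci fell to 521 lower and 606 higher. The cause was not tested. With each library centred on its median, and with the median change set to 0, 1 member passed the fold limit downward. The share of all loci past the fold limit was not counted in these fits or in the regression. Leaving out genes with an overlapping gene, also chosen after seeing the data, left 10 members. Of these, 2 were lower (20.0%, against 33.9% of 1597 such loci) and 1 was higher (10.0%, against 27.5%). The share called lower was thus below that of all such loci. When each library was left out, 17 to 24 members were lower and 2 to 3 were higher. Over all 6357 loci, 1831 to 2319 were lower and 1194 to 1261 higher in these fits. Of the members, 2 to 3 passed the fold limit downward and 28 to 32 had groups that did not overlap, and 4 to 6 corepressor genes were called. Leaving out a library can only add members without overlap, and the share of all loci without overlap or past the fold limit was not counted in these fits. The leave-one-out median of the members lay between -0.42 and -0.34. Of the 25 called members, 19 to 24 kept their call and direction when a library was left out, 24 with the common 75th percentile, 23 with median centring and 18 with the median change set to 0.

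Of 322 refits of 23 named genes, 291 kept direction and side of the threshold, 22 lost the call, 1 gained it (ZNF830, without the variance trend) and 8 changed sign, all in 3 genes that were not called. ZNF207 became -0.1621 with Ballgown's covariate, and lay between -0.0919 (without WT replicate 2) and 0.1272 when a library was left out. ZNF217 became 0.0307 with the 75th percentile, 0.0559 with median centring and 0.1248 with the median change set to 0. It lay between -0.0644 and 0.0481 (without KO replicate 2) when a library was left out, and was 0.0149 without WT replicate 3. ZNF622 became 0.0516 with the median change set to 0.

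Replicate numbers did not pair the samples: deviations of same-numbered WT and KO libraries correlated at 0.00958, 0.00606 and 0.0458 across 6357 loci, all under 0.1. With the replicate number as a block, 24 members were lower and 2 higher, where 2342 of 6357 loci were lower and 1365 higher. Of the members, 1 passed the fold limit upward and 2 downward, and the share of all loci past it was not counted in this fit. In the same fit 7 corepressor genes were called, the median of the members was -0.37, and 35 members lay below the median of all loci. All 25 called members kept their call. Not every library correlated best with its own number. Depth in reads is unknown, so no detection limit can be given for members near 1 FPKM.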
